A study of Mus musculus with 4 samples.

Results

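The 10 genes described here are markers of astroglia, the star-shaped support cells of the brain and the radial cells related to them. Gja1 and Gjb6 encode connexins, Aqp4 encodes a water channel, Ntsr2 and Fgfr3 encode receptors, Aldoc, Aldh1l1 and Etnppl encode enzymes, Itih3 encodes a secreted protein and Gfap encodes an intermediate filament protein. They make up 10 of the 15305 gene rows of a table of read counts of 82 single cells. They were chosen by their names and on their counts in these cells, so their pattern is described and not tested. A cell is said to carry a gene when it has 10 or more counts of it.

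The cells came from mice of the Penk-Cre Ai9 line, whose genotype is given as WT, and from tissue labelled SVZ/striatal. SVZ stands for the subventricular zone, a stem cell niche along the lateral ventricle. Cre made under the Penk gene switches on the red protein tdTomato from the Ai9 allele and leaves it on, so that tdTomato marks cells with present or past Cre activity rather than a cell type. Age, sex and the number of mice are not given in the sources used here. Dataset A is 41 cells sorted as positive for tdTomato and negative for CD11b, a surface protein of microglia, all on 1 plate. Dataset B is 41 cells sorted as positive for tdTomato with no CD11b gate, on 4 plates of 14, 6, 7 and 14 cells. Each gate is 1 sort, so the datasets were compared by counts of cells with exact (Clopper-Pearson) 95% intervals, which cover counting error only, and without a test. The labels name neuroblast and quiescent neural stem cell samples in each dataset, but the column names give only dataset, plate and well, and no cell was assigned to a labelled sample.

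The depth ranged from 530630 to 7765650 counts per cell (median 1942926) in dataset A, and from 1235278 to 3339591 (median 2135576) in dataset B. Xist, transcribed from the inactive X chromosome, reached 10 counts in 15 dataset A cells and 0 dataset B cells. The Y-linked gene Ddx3y reached 10 counts in 0 dataset A cells and 13 dataset B cells. Plate, gate and these sex-linked transcripts differ together between the datasets, and their parts cannot be told apart. Penk, the gene that drives Cre, reached 10 counts in 7 and 2 cells, in that order. The cell in well F6 of dataset A stood apart from the other carriers of many of the genes, and several of the results it changes are given without it as well.

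Astroglia are joined into networks by gap junctions, channels built of connexins through which ions and small metabolites pass from cell to cell. Aqp4 protein sits mainly in the endfeet that astroglia place on blood vessels, where it lets water cross the membrane. Gfap rises in reactive astroglia, and in the subventricular zone it is widely used to mark the astroglia-like stem cells, while many grey matter astrocytes of other regions show little of it. Quiescent neural stem cells share much of their expression with astrocytes, so these genes alone do not separate the pair.

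The deposited table holds counts and no sequences. The promoter windows of the genes are shown because the genes were found together in the same cells, with Gfap as the exception. RefSeq (GRCm38.p6) gave windows for 9 of the 10 genes, 12 windows of 250 bases before a start site in all, and the Aqp4 window was not used here. The windows of 4 genes are printed 5′ to 3′ on the strand of the gene, at chr10:56377050-56377299 on the plus strand for Gja1, chr14:57133612-57133861 on the minus strand for Gjb6, chr12:16653220-16653469 on the plus strand for Ntsr2 and chr11:102897201-102897450 on the minus strand for Gfap. Capitals mark the letters TTCNNNGAA, the form bound by STAT factors.
Gja1: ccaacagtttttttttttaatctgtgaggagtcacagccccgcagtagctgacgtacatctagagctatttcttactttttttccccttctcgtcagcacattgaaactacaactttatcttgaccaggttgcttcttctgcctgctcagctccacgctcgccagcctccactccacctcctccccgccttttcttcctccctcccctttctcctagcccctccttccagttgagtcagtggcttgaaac
Gjb6: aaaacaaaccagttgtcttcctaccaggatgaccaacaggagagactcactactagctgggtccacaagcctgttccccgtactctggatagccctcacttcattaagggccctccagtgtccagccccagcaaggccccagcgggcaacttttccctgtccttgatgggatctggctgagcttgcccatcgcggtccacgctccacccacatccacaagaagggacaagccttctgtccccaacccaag
Ntsr2: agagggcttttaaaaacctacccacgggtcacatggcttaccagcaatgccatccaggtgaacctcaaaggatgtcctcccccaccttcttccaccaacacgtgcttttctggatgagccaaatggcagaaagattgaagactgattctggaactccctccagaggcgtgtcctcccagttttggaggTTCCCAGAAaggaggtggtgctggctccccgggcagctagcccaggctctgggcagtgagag
Gfap: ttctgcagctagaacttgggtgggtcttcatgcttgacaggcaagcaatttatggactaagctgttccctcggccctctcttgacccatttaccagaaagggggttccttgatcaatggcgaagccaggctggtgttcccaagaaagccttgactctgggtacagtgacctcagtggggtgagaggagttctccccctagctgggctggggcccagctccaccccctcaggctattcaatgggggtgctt

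A set of 6 motifs was searched on both strands of each window. TATAAA, read by the core promoter machinery, was in 0 of the 12 windows, against 12.37% of 32851 RefSeq windows of the same length. ACAAAG (SOX factors) was also in 0 of 12, against 16.46%. GGGCGG (GC box) was in both windows of Fgfr3 and in 1 window each of Aldoc, Aldh1l1, Etnppl and Itih3, 6 in all, against 32.74% of all windows. TTCNNNGAA was in 1 window each of Ntsr2 and Aldoc, against 7.02%. TTGGCA (part of an NFI site) was in 1 window each of Aldoc and Etnppl, against 12.28%, and CCAAT in 1 window each of Fgfr3 and Aldh1l1, against 33.85%. The windows of Gja1, Gjb6 and Gfap held none of the 6 motifs. These are matches of letters and do not show binding.

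The 10 genes were concentrated in 6 cells, all of dataset A. Of the 820 pairs of a cell and a gene, 718 were at 0 counts, 35 at 1 to 9 and 67 at 10 or more. Of these 67, 61 lay at 100 counts or more. At least 5 of the genes were carried by 6 of 82 cells, or 7.32% (95% interval 2.73 to 15.3%). In dataset A this was 6 of 41 cells, or 14.6% (5.57 to 29.2%), and in dataset B 0 of 41, which allows up to 8.60%. Of the other cells, 61 carried 0 of the genes, 13 carried 1, 1 carried 2 and 1, in well F7, carried 4.

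**Figure D1:**
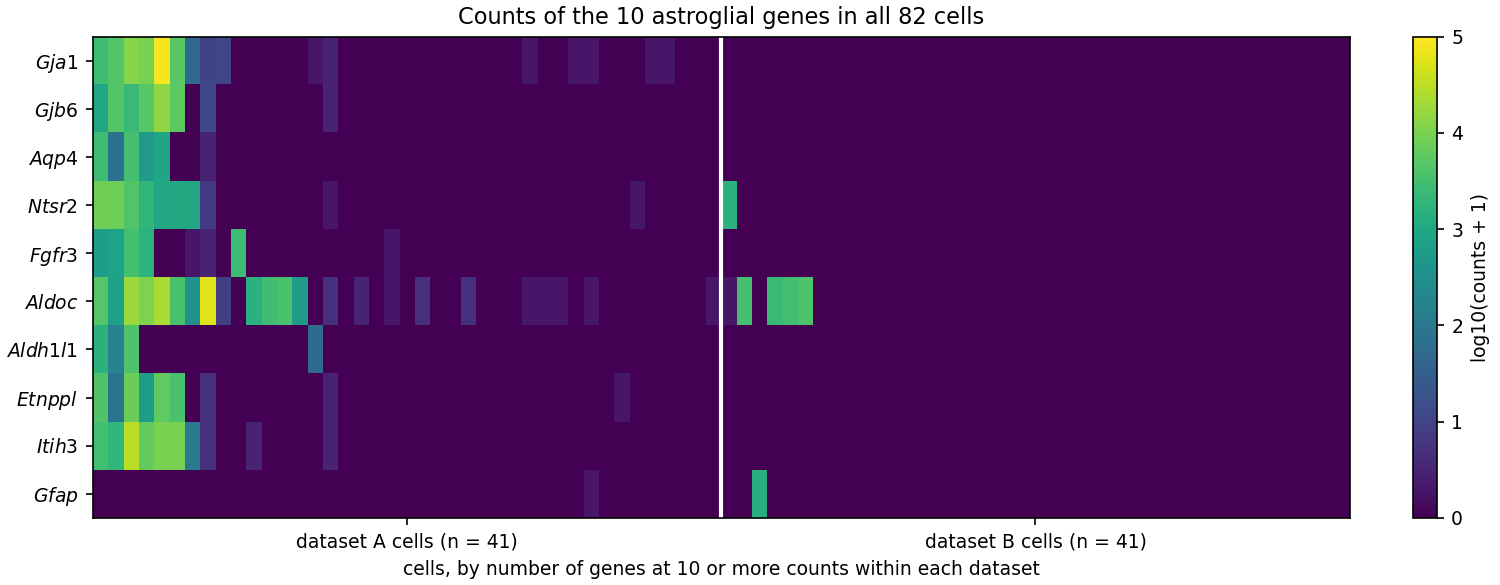
Counts of the 10 genes (rows) in each of the 82 cells (columns), as log10(counts + 1), with dataset A left and dataset B right of the white line. Within a dataset, cells are ordered by how many of the genes they carry. The 6 columns at the left edge carry 6 to 9 of the genes, while dataset B shows 7 squares above 0, 5 of them of Aldoc and 1 of these at under 10 counts.

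The 6 cells carried 6 to 9 of the genes each, with Gfap at 0 counts in every one. The cells in wells C6, F6 and H2 carried 9 genes, the cell in E2 carried 8, the cell in F4 7 and the cell in F3 6. They had 546021 to 2757305 counts, and their median depth of 1176028 lay below that of dataset A. The 10 genes took 1.78% of all counts in F6, 2.5% in C6, 3.62% in E2, 4.02% in H2, 5.16% in F4 and 5.28% in F3. F3, the shallowest of the 6, thus had the fewest genes and the highest share of its counts in them. The well F5, between F4 and F6 on the plate, had 1 count of Etnppl and no count of the other genes.

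Gja1, the main connexin of astrocytes, was carried by 8 of 41 cells of dataset A (interval 8.82 to 34.9%) and had 0 counts in all 41 cells of dataset B. It had 2865 counts in C6, 4650 in F6, 5152 in F3, 9897 in E2, 12363 in H2 and 85952 in F4. Both other carriers lay far below these 6, with 51 counts in F7 and 10 in A2. The cell in F4 alone held 71.1% of all Gja1 counts. Scaled to 1000000 counts per cell (CPM), Gja1 spanned 2460 to 31172 over the 6 cells, a 12.7-fold range.

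Gjb6, the second connexin of astrocytes, was carried by 7 cells of dataset A (7.15 to 32.1%) and had 0 counts in dataset B. It had 966 counts in C6, 2497 in H2, 4626 in F6, 4995 in E2, 5532 in F3 and 14682 in F4, and 11 in the cell of well G1. Every one of the 6 cells carried both connexins, and no cell outside them carried both. The balance between them differed from cell to cell. Per length of the canonical transcript, the ratio of Gja1 to Gjb6 was 0.42 in F3, 0.45 in F6, 0.90 in E2, 1.34 in C6, 2.24 in H2 and 2.65 in F4, with a median of 1.12. Gja1 was thus the higher of the pair in 3 cells and the lower in 3, with F6 among the latter. Of the 21 other connexin and pannexin genes listed, only Panx1 was analysed here, and it was at 0 counts in all 6 cells.

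Aqp4 was carried by 5 cells of dataset A (4.08 to 26.2%) and had 0 counts in dataset B. It had 71 counts in F6, 508 in E2, 891 in F4, 2822 in C6, 3144 in H2 and 0 in F3. Its level spanned 59.8 to 2423 CPM over the 5 carriers, a 40.5-fold range. F6 sets the low end, and without it the range was 323.1 to 2423 CPM, or 7.50-fold. The 0 in F3 allows up to 5.49 CPM at 3 counts. This limit covers the counting of reads only, and not transcripts lost before amplification. Outside the 6 cells, Aqp4 had a count only in G1, where it had 2. Aqp1, the aquaporin of choroid plexus, and Aqp11 were the other aquaporins analysed here, and both were at 0 counts in the 6 cells.

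**Figure D2:**
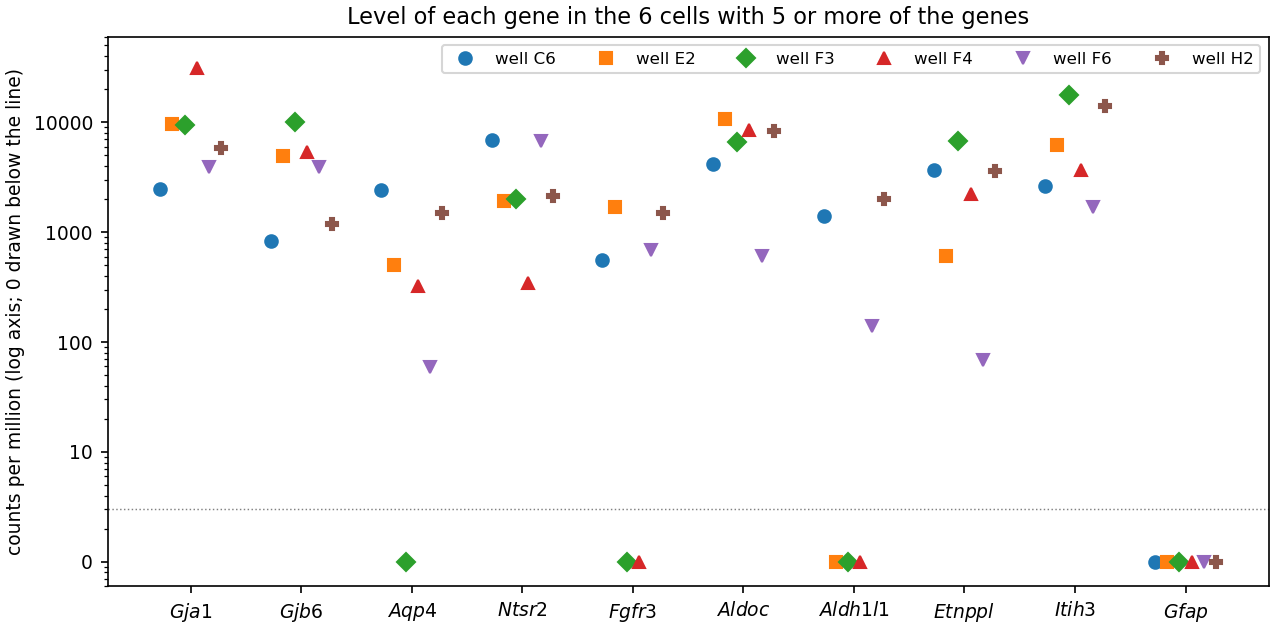
Level of each of the 10 genes in the 6 cells that carry 5 or more of them, in CPM on a log axis, with 1 symbol per well and values of 0 below the dotted line. Gja1, Gjb6, Ntsr2, Aldoc, Etnppl and Itih3 are above 0 in all 6 cells, Aqp4 in 5, Fgfr3 in 4, Aldh1l1 in 3 and Gfap in 0.

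Ntsr2, a neurotensin receptor found mainly on astroglia, was carried by 7 cells of dataset A (7.15 to 32.1%) and by 1 of dataset B (0.0617 to 12.9%). It had 957 counts in F4, 1091 in F3, 1961 in E2, 4465 in H2, 7987 in F6 and 8060 in C6. The order of the cells was not that of Gja1, since F4 had the most Gja1 and the lowest Ntsr2 level (347.1 CPM). Of the carriers outside the 6 cells, F7 had 954 counts, and the cell in well A4 of plate P1 of dataset B had 1559. That cell of dataset B carried none of the other 9 genes and had 17 of the 21 neuroblast genes listed at 10 or more counts.

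Fgfr3, a fibroblast growth factor receptor of astroglia and their progenitors, was carried by 5 cells of dataset A (4.08 to 26.2%) and had 0 counts in dataset B. It had 644 counts in C6, 810 in F6, 1707 in E2 and 3135 in H2, and 0 in F3 and F4. Among its carriers in the 6 cells the level varied 3.03-fold from lowest to highest CPM, with or without F6. The remaining carrier was the cell in well A8, the deepest of the table at 7765650 counts, with 2835 counts of Fgfr3 and 0 of the other 9 genes. It had 11 of the 14 choroid plexus genes listed at 10 or more counts, and it held most of the Fgfr3 counts found outside the 6 cells, which themselves held 68.9%.

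Aldoc, the brain form of the glycolytic enzyme aldolase, was the most widely carried, in 12 dataset A cells (16.1 to 45.5%) and 4 dataset B cells (2.72 to 23.1%). In the 6 cells it had 719 counts in F6, 3611 in F3, 4865 in C6, 10827 in E2, 17486 in H2 and 23533 in F4. The most counts were elsewhere, in G1, with 57833 counts or 17245 CPM, 41.02% of all Aldoc counts. Only 43.3% of Aldoc counts lay in the 6 cells, against 90.7% of Ntsr2 and more than that for Gja1, Gjb6, Aqp4, Aldh1l1, Etnppl and Itih3.

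Aldh1l1, an enzyme of folate metabolism used as a general astrocyte marker, was carried by 4 cells of dataset A (2.72 to 23.1%) and had 0 counts in dataset B. It had 167 counts in F6, 1623 in C6 and 4243 in H2, and 0 in E2, F3 and F4. The fourth carrier, the cell in H6, had 55 counts. H2 alone held 69.7% of all Aldh1l1 counts. No cell had 1 to 9 counts of Aldh1l1, so each cell either carried it or had no count.

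Etnppl, an enzyme that breaks down phosphoethanolamine, was carried by the 6 cells and by no other. It had 82 counts in F6, 615 in E2, 3694 in F3, 4239 in C6, 6121 in F4 and 7584 in H2. Its level spanned 69.1 to 6765 CPM, a 97.9-fold range. F6 sets the lower end, and without it the range was 604.0 to 6765 CPM, or 11.2-fold.

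Itih3, a secreted protein that binds hyaluronan of the extracellular matrix, was carried by the 6 cells and by F7, 7 cells of dataset A in all (7.15 to 32.1%), with 0 counts in dataset B. It had 2000 counts in F6, 3087 in C6, 6377 in E2, 9724 in F3, 10064 in F4, 29845 in H2 and 119 in F7. H2 held 48.7% of all its counts. Compared per length of the canonical transcript, the median level over the 6 cells was highest for Aldoc, at 2674 CPM per kilobase, followed by Gjb6 at 2069, Itih3 at 1654, Gja1 at 1627, Ntsr2 at 1275 and Etnppl at 607.1. Fgfr3 followed at 146.3, Aqp4 at 79.7 and Aldh1l1 at 16.7, each with some of the 6 cells at 0. Without F6 the median of Aldh1l1 was 0, while the order of the other genes stayed as given. The first 5 of these genes had ranges over the cells that overlapped widely, from 215.2 to 6632 CPM per kilobase.

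Gfap went against the other 9 genes. It had 0 counts in all 6 cells, where 3 counts would have been 1.09 to 5.49 CPM. As for Aqp4, this limit covers the counting of reads only. In dataset A, 1 count was found in all 41 cells, in the cell of well E9. In dataset B, the cell in well H4 of plate P2 had 1443 counts, or 610.8 CPM, and the other 40 cells had none. That cell carried none of the other 9 genes and had 14 of the 21 neuroblast genes at 10 or more counts.

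The genes missing from cells that carried the others were few and repeated. Of the 60 pairs of the 6 cells with the 10 genes, 12 were at 0 counts (20%) and 0 were at 1 to 9, and the lowest value above 0 was 71. Gfap accounted for 6 of the 12, Aldh1l1 for 3, Fgfr3 for 2 and Aqp4 for 1. The absences were nested, since C6, F6 and H2 lacked only Gfap, E2 also lacked Aldh1l1, F4 also lacked Fgfr3, and F3 also lacked Aqp4. The cell with the most genes missing, F3, was the shallowest at 546021 counts, while F4, with 3 missing, was the deepest at 2757305. From F3 to H2 in order of depth the number of missing genes was 4, 2, 1, 1 and 1, and F4 departs from that order. With each cell thinned to 500000 counts, 20% of the pairs were again at 0. Values of 0 stay at 0 when thinned, and the lowest value above 0 was 71, so this share could hardly change. Whether depth set the absences was not tested.

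Pairs of genes showed the same order. All 5 Aqp4 carriers carried Gja1, Gjb6, Ntsr2, Aldoc, Etnppl and Itih3. All 6 Etnppl carriers carried Gja1, Gjb6, Ntsr2, Aldoc and Itih3, and all 7 Itih3 carriers carried Gja1, Ntsr2 and Aldoc. The reverse did not hold for Aldoc, of whose 16 carriers 7 carried Gja1 and 8 had 0 counts of it. Aldh1l1 was at 0 counts in 5 of the 8 Gja1 carriers and in 2 of the 5 Aqp4 carriers. Gfap was at 0 counts in every carrier of any other of the genes.

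**Figure D3:**
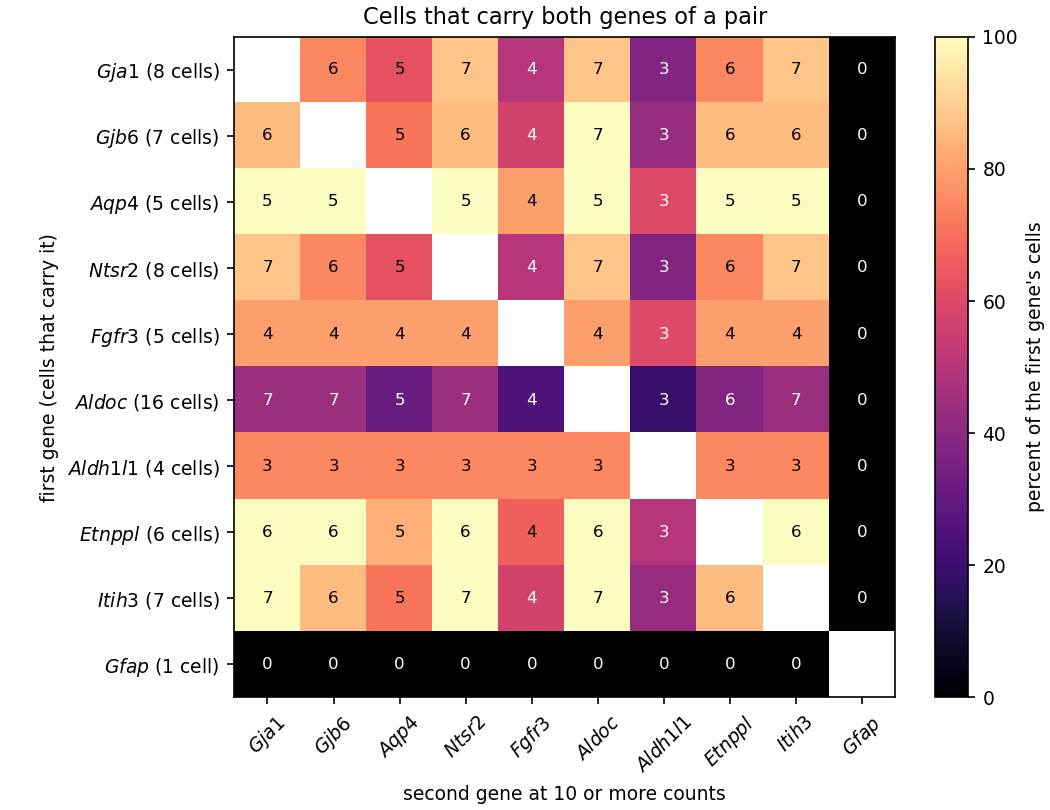
For each pair of genes, the number of cells that carry the first gene (row, with its number of carriers) and also the second (column), coloured by percent of the first gene's carriers. The Aqp4 and Etnppl rows are near 100% across most columns, the Aldoc row is low, and the Gfap row and column are at 0.

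Outside the 6 cells, 15 cells carried at least 1 of the genes, 9 in dataset A and 6 in dataset B. The cell in F7 carried 4, Gja1, Ntsr2, Aldoc (337 counts) and Itih3, and was the only one with more than 2. It was the shallowest cell of the table at 530630 counts, but had 2903 genes with a count. It had 19 of the other astroglial genes and 12 of the neuroblast genes listed at 10 or more counts. The cell in G1 carried Aldoc and Gjb6 and had 2 to 9 counts of Gja1, Aqp4, Ntsr2, Fgfr3, Etnppl and Itih3. It had 6 of the other astroglial genes listed at 10 or more counts.

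The 13 cells with a single one of the genes most often carried Aldoc. In dataset A these were C9 (2886 counts), G11 (3595), B3 (1579) and G9 (569). In dataset B they were C8, E8 and H8 of plate PL4, with 2465, 3024 and 4219 counts, and C1 of plate P1, with 3404. Of these 8, 5 had 13 to 19 neuroblast genes at 10 or more counts, and B3, C8 and E8, with 9 to 11 choroid plexus genes, had 0 neuroblast genes. G9 had 11 choroid plexus genes besides its 19 neuroblast genes. The other 5 single carriers were A8 with Fgfr3, A4 of plate P1 with Ntsr2, H4 of plate P2 with Gfap, H6 with Aldh1l1 and A2 with Gja1. H6 had 13 choroid plexus and 15 neuroblast genes, and A2 had 11 neuroblast genes.

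Counts of 1 to 9 were found almost only in dataset A, in 34 pairs of a cell and a gene against 1 in dataset B, and they summed to 78 counts. Aldoc gave 12 of them and Gja1 8. Just inside the limit of 10 counts were Gja1 in A2 with 10 and Gjb6 in G1 with 11, followed by Gja1 in F7 with 51 and Aldh1l1 in H6 with 55. Just outside it were Gja1 in G1 with 9, Aldoc in A2 with 8 and Ntsr2 in G1 with 6. The plate of dataset A held all 6 cells rich in these genes and nearly all of the low counts; whether the low counts came from those cells was not tested.

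Between the datasets, 9 of the 10 genes had carriers mostly or only in dataset A. Pooled over cells, Gja1 was at 1395 CPM in dataset A and 0 in dataset B, Itih3 at 706.3 and 0, Gjb6 at 384.3 and 0, Etnppl at 257.7 and 0, Fgfr3 at 105.4 and 0, Aqp4 at 85.8 and 0, and Aldh1l1 at 70.2 and 0. Aldoc was at 1475 CPM in dataset A and 152.9 in dataset B, and Ntsr2 at 294.0 and 18.2. Gfap was the reverse, at 0.0115 and 16.8 CPM. A mean of 1.49 of the genes per cell in dataset A and 0.146 in dataset B rests on few cells, since the median was 0 in both. Of 5793 genes at 10 or more counts in at least 5 cells, 862 (14.9%) had at least 2 times as many carriers in dataset A as in dataset B. All 8 of the genes that passed this filter did so, and Aldh1l1 and Gfap did not pass it. No count in dataset B at all was found for 121 of the 5793 genes (2.09%) and for 6 of these 8. Since the genes were chosen on these counts, and since a gene carried by the 6 cells passes the filter through dataset A, nothing is read from these shares. Within dataset B, the 6 carriers lay on plates P1 (2 cells), P2 (1) and PL4 (3), with 0 among the 7 cells of P3. The 6 cells give all of the carriers of Etnppl and Aqp4 and most of those of Gja1, Gjb6, Itih3 and Ntsr2 in dataset A.

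Other genes used by astroglia were high in the same 6 cells. Of 38 astroglial genes listed besides these 10, 36 had a row, and the 6 cells had 23 to 34 of them at 10 or more counts (median 28.5). The other 35 cells of dataset A had 0 to 19 (median 6), and the cells of dataset B 0 to 10 (median 3). F7, with 19, was the highest of the other cells, and the next had 12. A group of 16 of the 36 were at 10 or more counts in all 6 cells, led by Apoe, the main lipid carrier of the brain, at 9594 to 35505 CPM. Sparcl1, a secreted matrix protein, was at 3229 to 17659 CPM, and Cst3, a secreted protease inhibitor, at 3458 to 11667. Apoe and Cst3 were not particular to these cells, since 25 and 31 of the other dataset A cells and 23 and 34 of the dataset B cells also had 10 or more counts. Sparcl1 reached 10 counts in 5 other dataset A cells and 2 dataset B cells.

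The partners of Aqp4 at the endfoot were found in part. Of 14 listed genes with a row, the 6 cells had 1 to 6 at 10 or more counts (median 4.5). Without F6 the median was 4. Gpr37l1, an orphan receptor of astroglia, was at 10 or more counts in 5 of the 6 cells, and Hepacam, an adhesion molecule that binds connexins and Mlc1, in 4. Dag1, which encodes dystroglycan, and Dtna, a dystrobrevin of the same complex, were at 10 or more in 3 cells each. Dtnb, Sntb2, Trpv4 and Agrn were at 0 counts in all 6 cells. Kcnj10, a potassium channel of endfeet, had 3245 counts in F4, 825 in H2, 23 in F6, 8 in F3 and 0 in C6 and E2.

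Genes listed for quiescent neural stem cells were also present in part. Of 11 with a row, the 6 cells had 2 to 7 at 10 or more counts (median 4.5), against a median of 2 in the other dataset A cells and 1 in dataset B. Without F6 the range was 2 to 5 (median 4). Ptprz1, a receptor phosphatase, Nkain4, which interacts with the sodium pump, and Notch2, a Notch receptor, were at 10 or more counts in 5 of the 6 cells each. Notch2 was also at 10 or more counts in 17 other dataset A cells and 15 dataset B cells, Ptprz1 in 3 and 7, and Nkain4 in 1 and 0. Egfr, the receptor associated with stem cell activation, had 2722 counts in H2, 2095 in E2 and 12 in F6, and 0 in the other 3 cells. Vim, Prom1 and Pax6 were at 0 counts in all 6, and Vcam1 was above 0 in F6 alone. Vim and Prom1 each reached 10 counts in 0 other dataset A cells and 1 dataset B cell, so their absence was not particular to the 6. Pax6 did so in 5 and 4 cells, in that order, and Vcam1 in 7 and 8. Of 15 genes listed for reactive astroglia, 4 had a row, and none of these was at 10 or more counts in the 6 cells. The other dataset A cells and the dataset B cells had 0 or 1 of the 4 (median 0). The absence was thus not particular to the 6 cells. Of 3 proliferation genes with a row, Pcna alone reached 10 counts in the 6 cells, in H2 with 783, and it did so in 3 other dataset A cells and 5 dataset B cells.

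Markers of other cell types were few in 5 of the 6 cells and more numerous in F6. F6 had 8 of the 14 choroid plexus genes at 10 or more counts, with 16382 counts of Ttr and 22885 of Enpp2, while the other 5 cells had 0 to 2, with 1 to 20 counts of Ttr and 5 to 26 of Enpp2. F6 also had 7 of the 21 neuroblast genes, against 1 or 2 in the other 5, in each of which Ncam1 was one. It had 3181 genes with a count, against 1286 to 1537 in the other 5. F6 was the only one of the 6 with a count of Penk, 16 counts. Summed choroid plexus genes were at 34519 CPM in F6 and 7.73 to 47.1 CPM in the other 5. Whether F6 held the RNA of more than 1 cell was not tested. Without F6, 5 cells carried 5 or more of the genes, and they had 23 to 31 of the other astroglial genes (median 28).

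Genes of the remaining cell types were near absence in the 6 cells. Of 9 ependymal genes with a row, only Rsph1 reached 10 counts, in F6, and Foxj1, the regulator of motile cilia, was at 0. The 6 cells had 0 or 1 of the 14 microglial genes at 10 or more counts, and Itgam, which encodes CD11b, was at 0. They had 0 or 1 of the 10 oligodendrocyte genes with a row, among them Cnp in 2 cells and Bcas1 in 1. None of the 5 vascular genes reached 10 counts. For the ependymal, microglial and vascular lists, the median was 0 genes in the 6 cells, the other dataset A cells and dataset B. Low values there were thus not particular to the 6 cells. For the oligodendrocyte list the median was 1 in the 6 cells and 0 in both other groups. Foxj1 reached 10 counts in 0 other dataset A cells and 4 dataset B cells, and Itgam in 0 and 0. Xist was at 203 to 5759 counts in 5 of the 6 cells and at 0 in H2.

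**Figure D4:**
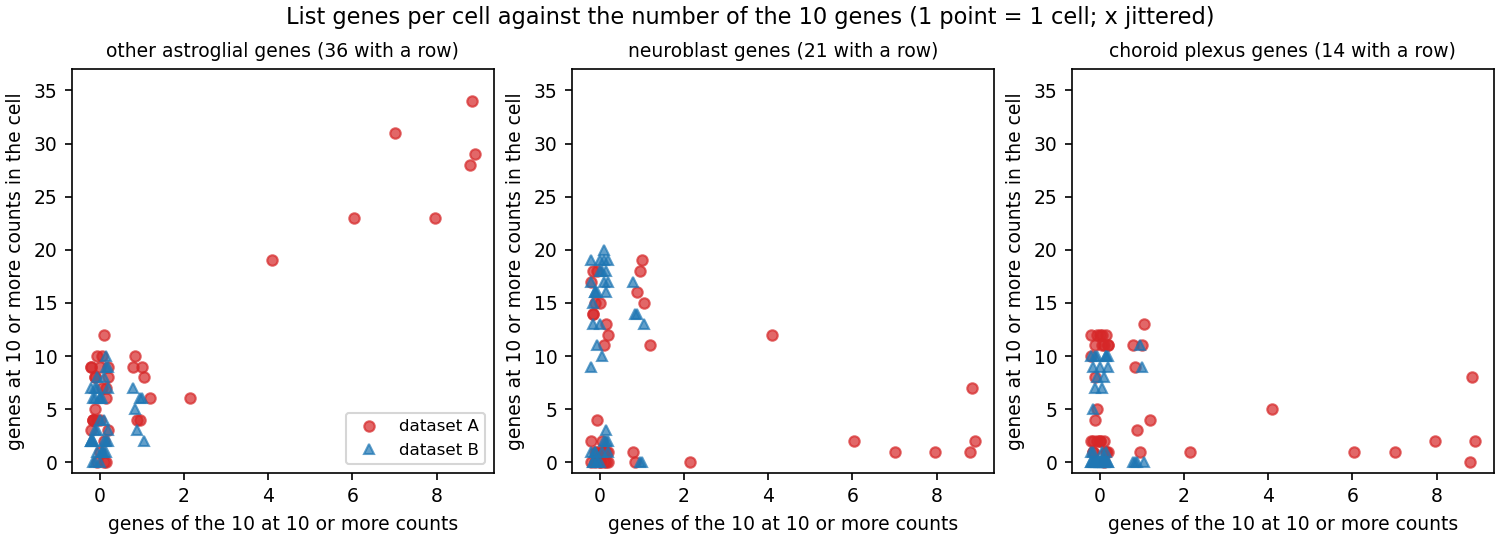
Genes of 3 lists at 10 or more counts in each cell (vertical axes) against the number of the 10 genes the cell carries (horizontal axes, jittered), with 1 point per cell, circles for dataset A and triangles for dataset B. The 6 cells at the right have 23 to 34 of the other astroglial genes, and 1 of them, F6, has 7 neuroblast and 8 choroid plexus genes.

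Clustering of the cells on genes outside the 10 and outside every list placed all 6 cells together. The division into 7 clusters had the highest mean silhouette (0.262) among divisions into 3 to 8. Its lead was narrow, since the division into 4 had 0.261 and the lowest, into 5, had 0.227. The values per cluster hold for the division into 7 only. The cluster with the 6 cells had 9 cells, all of dataset A, the other 3 being F7, H6 and the cell in E10, which carried none of the genes. E10 had 15 neuroblast genes and 5 of the other astroglial genes at 10 or more counts. H6 had 15 neuroblast genes, 13 choroid plexus genes and 8 of the other astroglial genes. The cluster's 10 leading genes held 5 of the 10 described here and 3 of the other astroglial genes (Atp1b2, Slc1a3 and Bcan), so it is called astroglia-like. The markers of E10 and H6 do not bear out that name for these cells. It shares its cells with the genes that chose them, and this is a description. Pooled over the cluster, Gja1 was at 7458 CPM, Aldoc at 3785, Itih3 at 3775, Gjb6 at 2053, Ntsr2 at 1571, Etnppl at 1377, Aqp4 at 458.6, Fgfr3 at 388.3, Aldh1l1 at 375.4 and Gfap at 0.

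In the other clusters Aldoc was the most abundant of the genes wherever any had a count. Gfap was at 42.1 CPM in the neuroblast-like cluster of 18 cells, against 0 in the astroglia-like one, and Ntsr2 was at 45.5 CPM there. Fgfr3 was at 57.9 CPM in the choroid-plexus-like cluster of 20 cells. Each of these 3 values comes from 1 carrying cell. In the neuroblast-like clusters, of 17 and 18 cells, Gja1 was at 0.326 and 0.0292 CPM, and Aldoc at 226.5 and 189.3 CPM. In the choroid-plexus-like clusters, of 20 and 9 cells, Gja1 was at 0.0817 and 0 CPM. Aldoc was at 144.7 CPM in the first of these, and all 10 genes were at 0 counts in the second. A cluster of 7 cells led by Laptm5, Ctss and H2-K1, which stays unnamed and holds G1, was at 3654 CPM of Aldoc and at 0.632 CPM of Gja1. These classes were rebuilt from the counts and are not the annotation of the study, and where they differ from it, the names given here may be the reason.

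The genes whose levels followed the number of the 10 genes per cell most closely were again mostly astroglial. Likeness was measured as Pearson's r of log2(CPM + 1) with that number over the 82 cells, for 5785 other genes, and is descriptive because the 6 cells share a plate and a sort and dominate the measure. The 10 most alike were Gm57029 (r = 0.95), Slc6a11 (0.95), Bcan (0.94), Cldn10 (0.90), Timp4 (0.89), F3 (0.89), Gpr37l1 (0.89), Hepacam (0.88), Plpp3 (0.87) and Cxcl14 (0.87). Of these, 7 were on the list of other astroglial genes, and Gm57029, Plpp3 and Cxcl14 were not. Slc6a11, the GABA transporter of astrocytes, had 184 counts in C6, 259 in F6, 1420 in E2, 2055 in H2, 4874 in F4 and 8 in F3. Bcan, a proteoglycan of the brain's matrix, was at 668.8 to 3445 CPM in all 6. Plpp3, a lipid phosphatase, was the only one of the 10 at 10 or more counts in dataset B, in 2 cells. In all, 21 genes had r of 0.8 or more and 120 had 0.5 or more.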

How the data were processed

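The data were read counts of single cells sorted into plates, 41 per sort gate. The authors deposited raw counts: every value is a whole number and cell totals differ. Per the labels' protocols, template switching and preamplification were used and no molecular identifiers are mentioned, so counts are reads and not molecules. Per the submitters' processing notes, FastQC 0.12.1, STAR 2.7.10b and featureCounts of Subread 2.1.1 were used, and the notes name the builds GRCm39 and mm10 without their roles. No strand setting is given in the sources used here. The run list was left aside.

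All 82 cells were kept, and doublets were not called. A gene was taken as present at 10 or more counts. CPM is counts per 1000000 of a cell or pool. Lengths are those of Ensembl canonical transcripts (GENCODE, GRCm39), used to compare genes. Clusters came from a Ward tree on 10 principal components of the 1500 most variable genes outside the lists, as log2(CPM + 1). A cluster was named where at least 3 markers led it. The text names all 10 genes, the 10 most like them, and up to 4 per list by carriers among the 6 cells; F7, G1 and other single cells, Kcnj10 and the genes named at 0 were added after their values were seen. Some genes the rule would name are not reported here. The 10 genes and the lists were chosen with earlier results of these data known. Alternatives were other count limits, thinning each cell to 500000 counts, leaving out cells, other correlations and other clusterings. Scripts were tested on simulated data. Python 3.11.15, numpy 2.4.6, pandas 2.3.3, scipy 1.17.1, scikit-learn 1.9.0 and matplotlib 3.10.9 were used.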

Additional observations from a re-analysis of the deposited data

How the results depend on the processing

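The number of cells with 5 or more of the genes was 6 and stayed between 5 and 9 under every alternative, from 5 without the cell in F6 (chosen after seeing the data) to 9 when 1 count was enough. At that limit of 1 count, the pairs of a cell and a gene rose from 67 to 102, the difference in genes per cell between dataset A and dataset B from 1.34 to 2.15, the carriers of Gja1 from 8 to 16 and those of Aldoc from 16 to 28. The share of absent genes in the rich cells was 20% and reached 25.6% at 1 count and 22.0% without F6. Of the 10 genes most like the set, 6 stayed with Spearman's correlation, 5 without the 6 cells and 1 when genes had to be present in at least 10 cells, a limit that removes most of the 10 by construction. Clustering on all genes kept 5 of the 6 cells in 1 cluster of 12, and clustering on fewer variable genes kept all 6 in a cluster of 15, against 9 cells in the cluster reported. Without F6 the fold range over the rich cells also moved for Aldoc (17.6 to 2.55), Aldh1l1 (14.3 to 1.44) and Itih3 (10.6 to 6.72), besides Aqp4 and Etnppl. A number of carrying or rich cells, or a share of absent genes, was taken as kept where it lay in the 95% counting interval of the value reported, which is wide for small numbers, and other values where they lay within 1.5 times. By these limits 94 of 107 alternative values were kept and 13 moved. No paired analysis was possible because the labels give no replicate numbers and each gate is 1 sort. A limit is that all 6 rich cells lie on 1 plate from 1 sort, so that no spread between animals or sorts can be given.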
